A study of Mus musculus with 6 samples.

Results

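The 9 genes described here encode apolipoprotein E and the receptors and transporters by which cells of the vessel wall take up lipoproteins or release cholesterol. They are *Apoe*, *Vldlr*, *Lrp1*, *Scarb1*, *Abca1*, *Abcg1*, *Cd36*, *Msr1* and *Olr1*. They were taken by NCBI gene identifier from the 18191 genes of the deposited table, and all 9 were found there. RNA of whole aortas from male mice was sequenced on the BGISEQ-500 platform in 3 WT libraries and 3 *Npr1*+/- libraries, numbered 1 to 3 within each genotype. The *Npr1*+/- mice were heterozygous for a CRISPR-Cas9 knockout of *Npr1*, which encodes the natriuretic peptide receptor, and the WT mice were wild type for it. The age, strain and diet of the sequenced mice, and whether a library held 1 aorta or several, are not given in the sources used here. Where nothing says that libraries came from separate animals, p-values measure only the spread between these libraries. The study also used *Apoe*-/- mice on a high-fat diet as a model of atherosclerosis, and none of the 6 libraries is labelled as coming from them.

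Apolipoprotein E sits on the surface of lipoprotein particles and is the ligand by which receptors of the low-density lipoprotein (LDL) receptor family, such as VLDLR and LRP1, bind and internalise them. Scavenger receptors, among them CD36, MSR1 and OLR1 (LOX-1), take up modified lipoproteins, which fills macrophages with cholesterol as foam cells form in atherosclerotic plaques. ABCA1 loads cholesterol onto lipid-poor apolipoproteins, ABCG1 and SCARB1 pass it to high-density lipoprotein (HDL), and *Abca1*, *Abcg1* and *Apoe* are textbook targets of the oxysterol-sensing liver X receptors (LXR).

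The bases before the start site are shown for 4 genes, because *Apoe*, *Abca1* and *Cd36* stood for the genes with higher values in *Npr1*+/- within every pair and *Lrp1* for those with lower ones. The sequences are those of RefSeq on GRCm38.p6, where 6 of the 9 genes have an entry and *Scarb1*, *Abcg1* and *Msr1* do not. Each is the 250 bases that precede a start site, written 5′ to 3′ on the strand of the gene, with matches to any of 5 motifs in capitals. The windows are chr7:19699189-19699438 for *Apoe*, chr4:53159896-53160145 for *Abca1*, chr5:17835897-17836146 for *Cd36* and chr10:127621149-127621398 for *Lrp1*, all on the minus strand. None of them overlaps an exon of GENCODE M21.
Apoe: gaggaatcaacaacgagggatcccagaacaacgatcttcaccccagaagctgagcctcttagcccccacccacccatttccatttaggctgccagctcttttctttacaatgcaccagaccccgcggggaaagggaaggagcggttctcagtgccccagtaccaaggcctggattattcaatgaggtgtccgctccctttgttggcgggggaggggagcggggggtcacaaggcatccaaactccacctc
Abca1: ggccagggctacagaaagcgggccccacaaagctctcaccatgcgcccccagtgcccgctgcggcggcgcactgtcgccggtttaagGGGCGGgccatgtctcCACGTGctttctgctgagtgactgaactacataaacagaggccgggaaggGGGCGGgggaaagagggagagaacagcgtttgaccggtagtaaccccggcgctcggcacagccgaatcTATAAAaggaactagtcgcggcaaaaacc
Cd36: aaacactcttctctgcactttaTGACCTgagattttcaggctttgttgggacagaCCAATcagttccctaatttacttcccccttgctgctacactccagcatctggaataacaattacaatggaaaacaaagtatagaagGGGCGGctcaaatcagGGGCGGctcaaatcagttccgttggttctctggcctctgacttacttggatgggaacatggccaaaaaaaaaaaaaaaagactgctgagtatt
Lrp1: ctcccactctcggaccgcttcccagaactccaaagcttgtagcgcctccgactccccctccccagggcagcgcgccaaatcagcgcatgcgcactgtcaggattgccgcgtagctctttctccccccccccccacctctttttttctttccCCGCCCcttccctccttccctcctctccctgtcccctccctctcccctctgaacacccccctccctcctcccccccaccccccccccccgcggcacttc

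The motifs were searched on both strands, and the share of all 32851 RefSeq windows of this length that hold them was 32.7% for the GC box (GGGCGG), 33.8% for the CCAAT box (CCAAT), 12.4% for the TATA box (TATAAA) and 6.02% for the E-box (CACGTG). The hexamer AGGTCA, to which nuclear receptors bind singly or as repeats, was in 14% of windows. *Abca1* had a TATA box at position -24 from the start site, GC boxes at -92 and -158 and an E-box at -142. The *Cd36* window, which is 1 of several start sites of the gene, held GC boxes at -88 and -104, a CCAAT box at -191 and an antisense AGGTCA at -223. Its start site lies 52905 bases from the GENCODE start of the gene, against 0 for the printed windows of *Apoe*, *Abca1* and *Lrp1*. Which start site of *Cd36* the aorta uses was not tested. *Lrp1* had 1 antisense GC box at -94, and the *Apoe* window held none of these letters. RefSeq gives 3 start sites for *Apoe*, and the window of another of them (chr7:19698622-19698871) held a TATA box at -91 and an antisense one at -95. Matches describe the sequence and are not shown to be sites that a factor binds.

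The estimated counts summed to between 13510970 and 16664343 per library, and the floor of 3 counts below which no signal was read came to at most 0.219 CPM (counts scaled to the library total, normalised between libraries by TMM). *Npr1* (NCBI gene 18160) was at 112.43, 153.33 and 151.51 FPKM (fragments scaled by transcript length and library total) in WT 1, 2 and 3, and at 70.35, 109.92 and 132.95 in the *Npr1*+/- libraries. The groups overlapped (log2 fold change -0.41, standard error 0.27, adjusted p in edgeR = 0.999), and *Npr1*+/- was lower within each replicate number. Smooth muscle markers were abundant in every library, with *Acta2* between 2202.48 and 7112.53 FPKM. The libraries numbered 1 stood apart on the first principal component, which held 59.3% of the variance. *Npr1*+/- 1 differed further, since the noradrenaline-synthesis gene *Dbh* had 56.15 FPKM there and at most 0.25 elsewhere. Values across the libraries of a genotype are given in the order of replicates 1, 2 and 3.

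The level of the 9 genes spanned a wide range in the aorta. In WT, *Apoe* had the highest mean FPKM, 419 ± 256 (SD, n = 3), followed by *Cd36* with 176 ± 149, *Lrp1* with 66.6 ± 6.16, *Vldlr* with 17.3 ± 1.07 and *Scarb1* with 15.7 ± 7.37. *Abca1* had 4.28 ± 2.29, *Abcg1* 1.21 ± 0.551, *Msr1* 0.893 ± 0.664 and *Olr1* 0.247 ± 0.205. Of the 8 neighbours in this order, 4 had overlapping ranges, which were *Apoe* and *Cd36*, *Vldlr* and *Scarb1*, *Abcg1* and *Msr1*, and *Msr1* and *Olr1*. In *Npr1*+/- aortas the order of the means was the same but for *Scarb1*, which stood above *Vldlr*, and the ranges overlapped for 3 neighbours. Those were *Apoe* and *Cd36*, *Scarb1* and *Vldlr*, and *Msr1* and *Olr1*. By FPKM *Apoe* ranked between 64 and 296 among all listed genes of a library, and *Olr1* between 13010 and 15388.

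**Figure D1:**
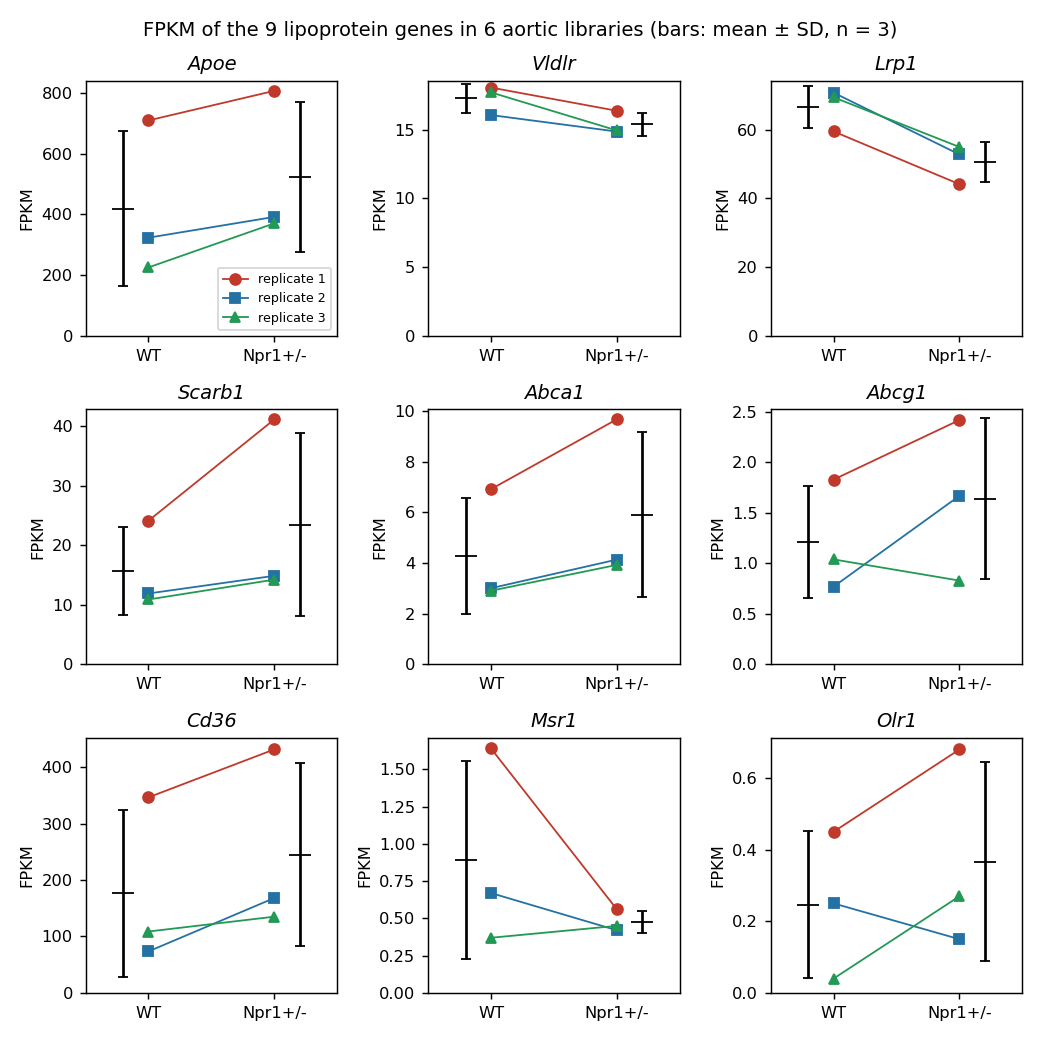
FPKM of each gene (vertical axis, from 0, its own scale) in WT and *Npr1*+/- aortas, with lines joining the libraries of the same replicate number and black bars for the mean ± SD (n = 3). *Apoe*, *Scarb1*, *Abca1* and *Cd36* slope up in all 3 pairs while replicate 1 lies far above the others, and *Lrp1* slopes down with no overlap between the genotypes.

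A gene was called when its adjusted p was under 0.05 and its log2 fold change reached 0.5 in either direction, and none of the 9 was. All 9 passed the filter on low counts, and the quasi-likelihood test of edgeR called 0 of them, against 0 of all 13938 genes tested (0%). The adjusted p was 0.999 for each, and 0 of the 9 had an unadjusted p under 0.05 (2.96% of all tested genes). DESeq2 called 0 of them without the replicate number as a block (0.0883% of all genes it tested) and 0 with it (1.46%). Limma called 0 of the 9 as well, and 0 of all genes. In both DESeq2 and limma without the block 1 gene of the 9, *Lrp1*, had an unadjusted p under 0.05. The share of all genes under 0.05 in those fits was not counted. The log2 fold change was positive for 6 of the 9 genes and negative for 3, with a median of 0.46, beside a median of 0.01 and 51.6% positive values over all tested genes. In the fit without the block, leaving out *Npr1*+/- replicate 1 while its same-numbered WT library stayed in left only *Abcg1* of the 9 with a positive value.

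Libraries with the same replicate number were read as 3 pairs, although no label says that they were matched. Correlations between the libraries did not tell the numbers 2 and 3 apart. Of the 9 genes, 7 differed in the same direction in all 3 pairs on the scale of log2 CPM, 4 higher and 3 lower in *Npr1*+/-, where 34.4% of all tested genes did so (17.5% higher and 16.9% lower). By FPKM the number was 6 (34.3% of all tested genes), since *Msr1* turned in pair 3. With the replicate number as a block, edgeR again called 0 of the 9 and 0 of all tested genes (0%), and 5 of the 9 had an unadjusted p under 0.05 (12.4% of all tested genes). Of these, *Apoe*, *Scarb1*, *Abca1* and *Cd36* were higher (7.36% of all tested genes were) and *Lrp1* was lower (5.09% were). Without the pair numbered 1 the block called 0 of the 9 (0.23% of all tested genes), and all 9 kept the sign of their log2 fold change. It left *Apoe*, *Abca1* and *Cd36* at an unadjusted p under 0.05, and the share of all tested genes under 0.05 in that fit was not counted.

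**Figure D2:**
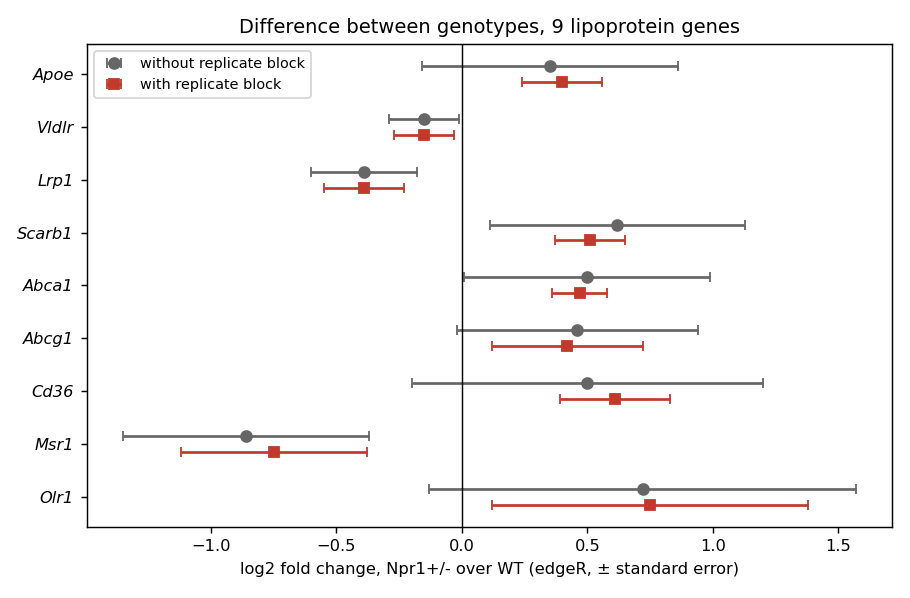
Log2 fold change of *Npr1*+/- over WT (horizontal axis) for each gene, with its standard error, from edgeR without (grey circles) and with (red squares) the replicate number as a block. The estimates of both fits lie close together, and the standard error of *Apoe*, *Cd36*, *Scarb1* and *Abca1* is smaller with the block, for example 0.11 against 0.49 for *Abca1*.

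*Apoe* (NCBI gene 11816, chr7:19696109-19699188, minus strand, GENCODE M21 on GRCm38), the ligand, was at 709.11, 323.37 and 225.55 FPKM across WT libraries, and at 806.66, 391.80 and 370.68 across *Npr1*+/- libraries. Both libraries numbered 1 were high, and WT 1 was above *Npr1*+/- 2 and 3, so that the groups overlapped (exact two-sided permutation test of log2 CPM, p = 0.5, where 3 libraries against 3 allow no p under 0.1). The *Npr1*+/- library held 119%, 125% and 155% of the CPM of the same-numbered WT library. The log2 fold change was 0.35 (standard error 0.51), or 0.40 (standard error 0.16, adjusted p in edgeR = 0.363) with the block. It was -0.17 without *Npr1*+/- replicate 1, and 0.48 with the block and without the pair numbered 1.

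Over the 6 libraries, the tested genes whose centred log2 CPM lay closest to that of *Apoe* were *Cyyr1*, *Tiparp* and *Cenpv*, with root mean square differences of 0.05, 0.0753 and 0.0777, where *Apoe* itself varied by 0.64 about its mean. *Cyyr1*, for example, was at 6.82, 3.10 and 2.02 FPKM across WT libraries, and at 7.90, 3.91 and 3.51 across *Npr1*+/- libraries. The neighbouring *Apoc1* (chr7:19689481-19692660), which encodes another apolipoprotein, was at 440.53, 64.09 and 46.48 FPKM across WT libraries, and at 389.71, 73.91 and 108.56 across *Npr1*+/- libraries. It shared the high level in both libraries numbered 1, but not the direction in pair 1.

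*Lrp1* (NCBI gene 16971, chr10:127538161-127621148, minus strand), the large endocytic receptor that smooth muscle cells carry, was the 1 gene of the 9 whose genotypes did not overlap. Its level was 59.50, 70.77 and 69.44 FPKM across WT libraries, against 44.14, 52.79 and 54.96 across *Npr1*+/- libraries. Every *Npr1*+/- library was below every WT library, as for 3.58% of all tested genes in this direction and 3.9% in the other (exact two-sided permutation test, p = 0.1, the smallest possible). The pairs were close to each other, at 77.5%, 77.1% and 75% of the WT CPM. In edgeR the log2 fold change came to -0.39 (standard error 0.21, adjusted p = 0.999), and -0.39 (standard error 0.16, adjusted p in edgeR = 0.382) with the block. It lay between -0.47 and -0.33 over the 16 alternatives, with an adjusted p of at least 0.0928.

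*Vldlr* (NCBI gene 22359, chr19:27216484-27254231, plus strand), a receptor for triglyceride-rich particles, had the smallest spread of the 9 genes. Its level was 18.06, 16.06 and 17.71 FPKM across WT libraries, against 16.37, 14.86 and 14.94 across *Npr1*+/- libraries, with the highest value 1.22 times the lowest. The groups overlapped at WT 2 and *Npr1*+/- 1, although each pair was lower, at 96.6%, 95.2% and 79.5% of the WT CPM (log2 fold change -0.15, standard error 0.14, adjusted p in edgeR = 0.999). It was -0.24 without *Npr1*+/- replicate 1, and -0.20 with the block and without the pair numbered 1. For *Vldlr* the libraries numbered 1 held 1.05 times the mean CPM of the other libraries in WT and 1.16 times in *Npr1*+/-. For *Lrp1* these values were 0.835 and 0.852, and for *Apoe* 2.55 and 2.2.

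*Scarb1* (NCBI gene 20778, chr5:125277087-125341094, minus strand), the HDL receptor SR-BI, was at 24.16, 11.93 and 10.92 FPKM across WT libraries, and at 41.20, 14.90 and 14.26 across *Npr1*+/- libraries. Again both libraries numbered 1 were the highest, and *Npr1*+/- held 179%, 128% and 124% of the WT CPM within the pairs. The log2 fold change was 0.62 (standard error 0.51), and 0.51 (standard error 0.14, adjusted p in edgeR = 0.211) with the block. It was -0.12 without *Npr1*+/- replicate 1, and 0.34 with the block and without the pair numbered 1.

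*Abca1* (NCBI gene 11303, chr4:53030787-53159895, minus strand), the cholesterol exporter with the TATA box in the window printed above, was at 6.92, 3.01 and 2.91 FPKM across WT libraries, and at 9.68, 4.14 and 3.93 across *Npr1*+/- libraries. The pairs held 147%, 141% and 129% of the WT CPM. With the block it had the smallest p of the 9 genes (log2 fold change 0.47, standard error 0.11, adjusted p in edgeR = 0.153), against a log2 fold change of 0.50 and a standard error of 0.49 without it. Without *Npr1*+/- replicate 1 the value was -0.11, and with the block and without the pair numbered 1 it was 0.43. *Abcg1* (NCBI gene 11307, chr17:31057675-31117988, plus strand), the second efflux transporter, was at 1.83, 0.77 and 1.04 FPKM across WT libraries, and at 2.42, 1.67 and 0.83 across *Npr1*+/- libraries. It was higher in pairs 1 and 2 and lower in pair 3, with 72 to 206 estimated counts in a library. Its log2 fold change of 0.46 (standard error 0.48) became 0.03 without *Npr1*+/- replicate 1. With the block it was 0.42, and 0.39 without pair 1, 0.04 without pair 2 and 0.79 without pair 3.

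*Cd36* (NCBI gene 12491, chr5:17781690-17888801, minus strand), a scavenger receptor that also carries fatty acids into fat, muscle and capillary endothelium, varied over a wider range than the genes described so far, with the highest FPKM 5.87 times the lowest. Its level was 346.56, 73.53 and 108.78 FPKM across WT libraries, against 431.58, 168.22 and 135.11 across *Npr1*+/- libraries. The libraries numbered 1 held 3.71 times the mean CPM of the other libraries in WT and 2.96 times in *Npr1*+/-. Within the pairs *Npr1*+/- held 130%, 237% and 117% of the WT CPM. The log2 fold change was 0.50 (standard error 0.70), and 0.61 (standard error 0.22, adjusted p in edgeR = 0.331) with the block. It was -0.25 without *Npr1*+/- replicate 1, and 0.73 with the block and without the pair numbered 1.

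The macrophage scavenger receptor *Msr1* (NCBI gene 20288, chr8:39581685-39642673, minus strand) and the oxidised LDL receptor *Olr1* (NCBI gene 108078, chr6:129485244-129507165, minus strand) had the fewest counts of the 9 genes. *Msr1* had an estimated count of 67, 42 and 24 across WT libraries, and of 26, 29 and 19 across *Npr1*+/- libraries, with a log2 fold change of -0.86 (standard error 0.49, adjusted p in edgeR = 0.999). In pair 3 its CPM was lower in *Npr1*+/-, at 81.5% of WT, while its FPKM was higher, 0.45 against 0.37, so that the direction there depends on the scale. Without *Npr1*+/- replicate 1 the log2 fold change was -0.98, and with the block it was -0.75, or -0.40 without the pair numbered 1. *Olr1* had 18, 13 and 2 estimated counts across WT libraries, the last of them under the floor of 3 counts. It had 31.96, 8 and 13.72 across *Npr1*+/- libraries, higher in 2 of 3 pairs, and its log2 fold change was smaller than its standard error (0.72 against 0.85, adjusted p in edgeR = 0.999). It was -0.10 without *Npr1*+/- replicate 1. With the block it was 0.75, and 0.72 without pair 1, 1.44 without pair 2 and 0.18 without pair 3.

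The single tested gene closest in pattern was *Bscl2* for *Abca1* (root mean square difference 0.0393), *Gprc5b* for *Scarb1* (0.0481), *Myl1* for *Cd36* (0.0494), *Tm7sf3* for *Lrp1* (0.0436) and *Rap2c* for *Vldlr* (0.0172). For *Bscl2*, the gene of the lipid droplet protein seipin, the level was 115.85, 49.79 and 49.60 FPKM across WT libraries, against 166.30, 69.10 and 66.88 across *Npr1*+/- libraries. The low-count genes had looser matches, *Prkch* for *Abcg1* (0.144), *1810062G17Rik* for *Msr1* (0.103) and *Cntf* for *Olr1* (0.197).

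Whole aorta holds several cell types that express these genes, and in bulk RNA fewer cells of a type and less RNA per cell cannot be told apart. The 10 adipocyte markers are in none of the lists of lipoprotein genes. As a group they moved with *Apoe*, *Cd36*, *Scarb1* and *Abca1* across the libraries. Only *Lep* was lower in pair 3 (6.40 FPKM in WT 3, 1.88 in *Npr1*+/- 3). The summed level of the 10 markers was 3578, 588 and 718 FPKM across WT libraries, against 4931, 1373 and 1227 across *Npr1*+/- libraries. It was high in both libraries numbered 1 and higher in *Npr1*+/- in all 3 pairs. The mean of their log2 CPM was 0.94 higher in *Npr1*+/- (exact two-sided permutation test, p = 0.4), with 10 of 10 markers positive. Without *Npr1*+/- replicate 1 the difference was 0.30. In edgeR with the block, 7 of the 10 were higher at an unadjusted p under 0.05, where 7.36% of all tested genes were. Without the block 1 of them was under 0.05 (2.96% of all tested genes). None was at 0 in any library, and *Adipoq*, which encodes adiponectin, lay between 92.82 and 736.39 FPKM. The 5 markers of capillary endothelium, which also express *Cd36*, summed to 250, 64.5 and 73.7 FPKM across WT libraries, and to 357, 127 and 107 across *Npr1*+/- libraries, with 5 of 5 positive. The difference of their mean log2 CPM was 0.56, and 0.10 without *Npr1*+/- replicate 1. The part of the fat and capillary markers in the differences of the 4 genes was not tested.

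By mean log2 CPM, the 12 macrophage markers were also highest in the library numbered 1 of each genotype. They were higher in *Npr1*+/- in 1 of 3 pairs. They summed to 529, 362 and 233 FPKM across WT libraries, and to 370, 288 and 303 across *Npr1*+/- libraries, with 4 of 12 log2 fold changes positive and a difference of -0.05 in their mean log2 CPM (exact two-sided permutation test, p = 1.0). The sign of that difference turned without WT replicate 1 (0.24) and without *Npr1*+/- replicate 3 (0.03). *Msr1*, like the sum of these markers, had its highest level in WT 1. Among the markers, *Mertk* (27.23 FPKM in WT 1, 42.46 in *Npr1*+/- 3) and *Aif1* (2.51 in WT 1, 2.81 in WT 2) peaked elsewhere. *Csf1r*, the receptor that maintains macrophages, was present in every library, at 7.47 to 16.30 FPKM.

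Of the other lists, the 8 smooth muscle markers had a lower mean log2 CPM in the *Npr1*+/- library of every pair, with 6 of the 8 lower in all 3 pairs (difference -0.33, 0 of 8 positive log2 fold changes, exact two-sided permutation test, p = 0.5). They summed to between 8619 and 15161 FPKM in WT and between 5014 and 14358 in *Npr1*+/-. Without *Npr1*+/- replicate 1, while its same-numbered WT library stayed in, that difference was 0.11. The 10 endothelial markers were 0.51 higher (9 of 10 positive, p = 0.2 by the same exact permutation test), with sums of 174 to 259 FPKM in WT and 298 to 412 in *Npr1*+/-. That difference was 0.26 without *Npr1*+/- replicate 1 and 0.30 without WT replicate 2. The mean log2 CPM of the endothelial markers was higher in *Npr1*+/- in all 3 pairs. In edgeR with the block, 7 of the 10 were higher at an unadjusted p under 0.05 (7.36% of all tested genes) and 1 was lower (5.09%). Without the block 4 were under 0.05 (2.96%). The fibroblast markers were 0.32 lower in the mean log2 CPM of *Npr1*+/- than in WT, 8.33 against 8.65 (a difference of -0.16 without *Npr1*+/- replicate 1). For the cardiac markers the mean was 0.43 higher (0.30 without *Npr1*+/- replicate 1), with 3 of 7 tested markers positive, a median log2 fold change of -0.04 and the largest value, 2.90, for *Actc1*. In *Npr1*+/- 1 the Schwann cell markers summed to 132 FPKM, against 21.8 to 42.1 elsewhere, and the sympathetic neuron markers to 351, against 68.4 to 82.6. Of the latter markers, *Uchl1* alone was at 61.94 to 78.55 FPKM in the other libraries, most of their sums, and at 98.86 in *Npr1*+/- 1. *Th*, the first enzyme of noradrenaline synthesis, was at 38.97 FPKM there, at 0 in the WT libraries and at most 0.07 in the other *Npr1*+/- libraries. The part of these cell types in the levels of the 9 genes was not tested.

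**Figure D3:**
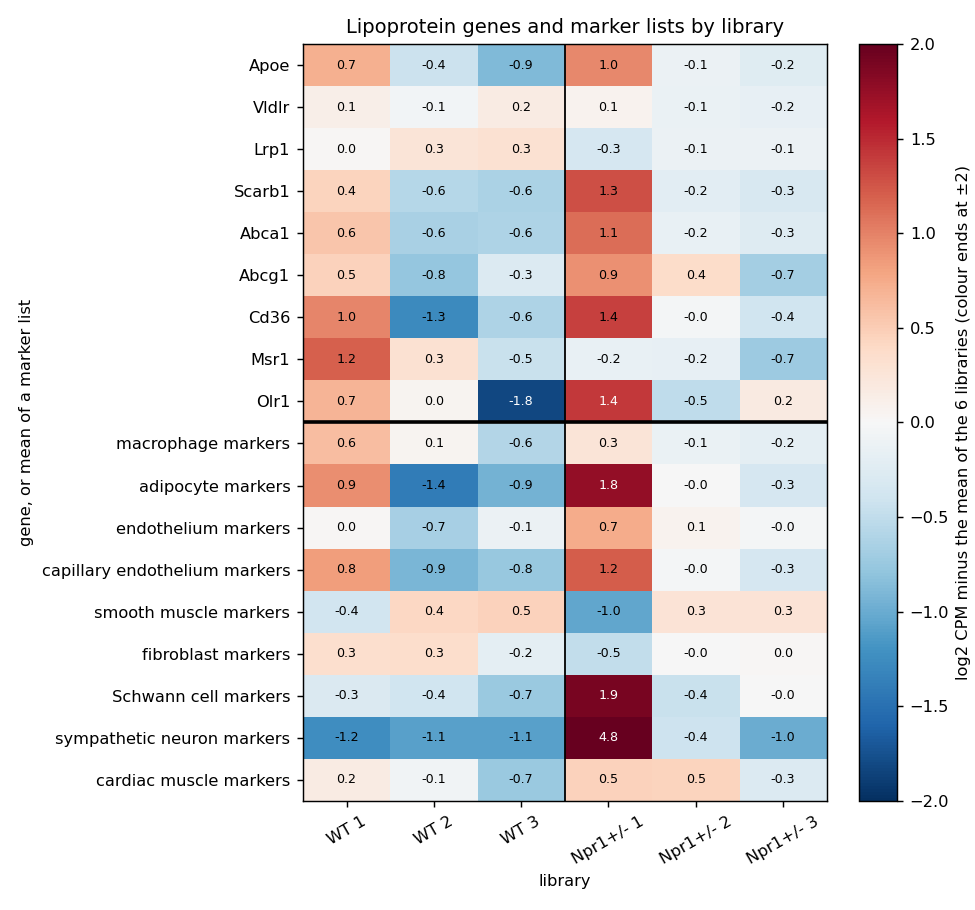
Log2 CPM of the 9 genes (upper rows) and mean log2 CPM of 9 marker lists (lower rows), each minus its mean over the 6 libraries shown as columns, with red above and blue below the mean. *Apoe*, *Scarb1*, *Abca1*, *Abcg1*, *Cd36* and *Olr1* and the adipocyte and capillary lists are red in both libraries numbered 1, whereas *Lrp1* and *Vldlr* stay pale. The macrophage and cardiac lists are also above their means in both of these libraries, less strongly than the adipocyte list.

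The wider pathway was described with 7 lists of 103 further genes, of which 85 were tested. Of these, edgeR called 0 in either fit, 0 had an unadjusted p under 0.05 without the block, and 18 had one with it, 15 higher and 3 lower, where 12.4% of all tested genes did (7.36% higher and 5.09% lower). In DESeq2 with the block, a fit added after seeing the data, 2 of the listed genes passed the thresholds, *Lpl* and *Colec12*. Of all genes tested in that fit, 1.46% passed them.

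**Figure D4:**
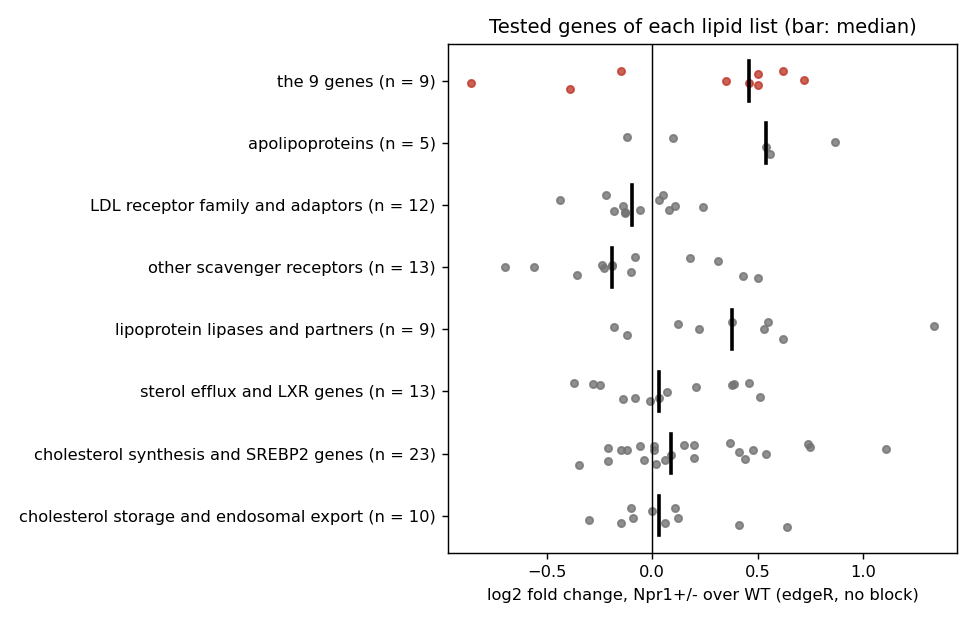
Log2 fold change of *Npr1*+/- over WT (horizontal axis, edgeR without the block) for every tested gene of the 9 and of the 7 lists, with a bar at the median of each list. The lipases and their partners have a median of 0.38, and the LDL receptor family and its adaptors a median of -0.09.

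The lipoprotein lipases and their partners, which release fatty acids from the particles, had the most genes at an unadjusted p under 0.05 with the block, 5 of 9 tested, all higher, beside 7.36% of all tested genes in that direction. *Lpl*, lipoprotein lipase, was at 464.78, 90.38 and 73.16 FPKM across WT libraries, and at 599.97, 189.41 and 151.91 across *Npr1*+/- libraries (log2 fold change 0.84, standard error 0.20, adjusted p in edgeR = 0.169 with the block). Without the block its log2 fold change was 0.62, with a larger standard error of 0.86. The others were *Gpihbp1*, its anchor on capillaries (log2 fold change 0.44 with the block), *Angptl4*, its inhibitor (0.54), endothelial lipase *Lipg* (1.17) and *Lcat*, which esterifies cholesterol on HDL (0.53). *Lcat* alone among them was not high in the libraries numbered 1, with 4.17, 6.18 and 5.30 FPKM across WT libraries, and 5.89, 7.43 and 9.20 across *Npr1*+/- libraries. The other lipase genes were high in the libraries where the adipocyte markers were high, and the part of fat in their values was not tested.

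Of 14 apolipoprotein genes 5 were tested, and their log2 fold changes had a median of 0.54. *Apod* and *Apol6* had an unadjusted p under 0.05 with the block (log2 fold changes 0.73 and 0.46). *Apod* also had the largest value without the block, 0.87, with 46.48 FPKM in *Npr1*+/- 1 and 11.72 to 20.52 elsewhere. *Clu*, clusterin, was the most abundant by mean FPKM, 557 ± 135 for WT (SD, n = 3) against 516 ± 184 for *Npr1*+/-. The 12 tested genes of the LDL receptor family and its adaptors had a median of -0.09 and 0 genes at an unadjusted p under 0.05 in either fit. The sorting receptor *Sorl1* had the largest value, and was at 19.73, 33.54 and 44.11 FPKM across WT libraries, and at 17.93, 29.18 and 24.49 across *Npr1*+/- libraries (log2 fold change -0.44, standard error 0.34, adjusted p in edgeR = 0.999). The groups overlapped, and each pair was lower in *Npr1*+/-.

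Among the other scavenger receptors, 13 were tested and the median log2 fold change was -0.19. *Colec12*, a scavenger receptor with a collagen-like stalk, was at 45.03, 64.92 and 60.07 FPKM across WT libraries, and at 22.48, 45.58 and 47.02 across *Npr1*+/- libraries, lower in every pair (log2 fold change -0.61, standard error 0.14, adjusted p in edgeR = 0.162 with the block). Without the block its log2 fold change was -0.56 (standard error 0.30). *Scara3* was lower in every pair as well (-0.38), and the endothelial receptors *Scarf1* and *Stab1* were higher (0.41 and 0.29, all with the block). *Megf10* had the largest log2 fold change of the list without the block, -0.70, at no more than 0.27 FPKM.

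Of 13 tested genes of sterol efflux and LXR signalling, *Nr1h3*, which encodes LXR alpha, and its target *Lpcat3* had an unadjusted p under 0.05 with the block (log2 fold changes 0.46 and 0.39), and the median of the list without it was 0.03. *Nr1h3* was at 28.06, 11.09 and 8.11 FPKM across WT libraries, and at 31.08, 13.29 and 15.74 across *Npr1*+/- libraries, highest in both libraries numbered 1 as *Apoe* and *Abca1* were. *Nr1h2*, which encodes LXR beta, lay between 65.55 and 86.26 FPKM without such a peak. *Ch25h* had the largest log2 fold change of the list, 0.51 (standard error 0.55).

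The 23 genes of cholesterol synthesis and its regulator SREBP2 had a median log2 fold change of 0.09. *Insig1*, which holds the SREBP proteins in the endoplasmic reticulum, had the largest, 1.11 (standard error 0.59), with 167.19 FPKM in *Npr1*+/- 1 and 25.90 to 52.63 in the other libraries. It was higher in *Npr1*+/- in 2 of 3 pairs by CPM. With the block it was 0.86, that of *Pmvk* 0.63 and that of *Srebf2* -0.32, each with an unadjusted p under 0.05. In the list of cholesterol storage and endosomal export, with a median of 0.03 over 10 genes, the lipid droplet coat gene *Plin2* and the lysosomal cholesterol carrier *Npc2* were higher in every pair (log2 fold changes 0.67 and 0.39 with the block). *Plin2* was at 220.60, 56.19 and 96.18 FPKM across WT libraries, and at 326.20, 140.82 and 100.58 across *Npr1*+/- libraries, again highest in both libraries numbered 1.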

How the data were processed

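Reads were cleaned by the authors (SOAPnuke), mapped to a set of coding genes (Bowtie2) and quantified (RSEM), and the authors deposited the estimated counts of each gene without normalization, together with FPKM scaled by transcript length and library total. The processing notes name mm10, which is the build of GRCm38, and DESeq2 1.4.5. The deposited means of each genotype were not used. Symbols were paired with 18070 of 18191 NCBI identifiers.

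The estimated counts were rounded and tested with R 4.3.3 and edgeR 4.0.16 (TMM normalization, filter with a minimum count of 10, quasi-likelihood test, Benjamini-Hochberg adjustment over 13938 genes), in place of the DESeq2 of the study's methods. Log2 CPM used a prior count of 2. DESeq2 1.42.0, limma 3.58.1 on log2(FPKM + 0.1) and log2(FPKM + 1) for genes whose FPKM averaged 0.1 or more, DESeq2's size factors, no filter on low counts, the replicate block and leaving out each library were the alternatives. DESeq2 with the block, and the block without each pair, were added after seeing the data. Fits were tested on simulated data.

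Replicate numbers come from the sample labels. Deviations from the genotype means correlated at 0.64, 0.39 and 0.24 between libraries numbered 1, 2 and 3, and between -0.58 and 0.44 for other pairs, so that the numbers 2 and 3 are not told apart by this. The 9 genes, 7 pathway lists and 9 marker lists were chosen with earlier results of these data known. Named genes are the 9, in each list the gene with the largest log2 fold change and those at an unadjusted p under 0.05, the closest patterns, markers and *Npr1*. *Apoc1*, *Clu* and *Nr1h2* were named after their values were seen. From the pathway lists, 1 gene was left out and is not reported here.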

Additional observations from a re-analysis of the deposited data

How the results depend on the processing

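No alternative called any of the 9 genes. Their log2 fold changes kept their sign in the 10 alternatives that left out no single library. Without single libraries in turn, the values ranged from -0.17 to 0.94 for *Apoe*, -0.12 to 1.05 for *Scarb1*, -0.11 to 1.01 for *Abca1*, -0.25 to 1.43 for *Cd36* and -0.10 to 1.38 for *Olr1*, each negative only without *Npr1*+/- replicate 1. Those of *Lrp1*, *Vldlr*, *Msr1* and *Abcg1* kept their sign (-0.47 to -0.33, -0.24 to -0.11, -1.21 to -0.32 and 0.03 to 0.86). The marker difference ranged from -0.36 to 0.24 for macrophages, positive without WT replicate 1 and without *Npr1*+/- replicate 3 (0.03), and from -0.60 to 0.11 for smooth muscle.

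Among all tested genes, edgeR called 0 and DESeq2 called 16. With the replicate number as a block edgeR called 0 and DESeq2 265, and edgeR called 32 without pair 1, 0 without pair 2 and 50 without pair 3. Of the pathway genes, DESeq2 with the block called 2, and 0 were called in the other alternatives. With all libraries kept, the block changed no call of edgeR. At this depth *Olr1* had between 2 and 31.96 estimated counts in a library, the lowest under the floor of 3. The cause of these changes was not tested.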
